A study of Bos taurus with 10 samples.

Results

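The 5 genes PPARG, PPARA, PPARGC1A, CEBPA and MLXIPL, which encode transcriptional regulators of fat metabolism, were followed in 10 Hanwoo, in longissimus dorsi, a back muscle sold as loin. Members were taken by gene symbol. A probe set of the bovine array counted if its annotation held exactly 1 symbol and that symbol was one of the 5. This gave 10 probe sets of the 24016 outside the array controls, and 5 of 9155 named genes. The brightest probe set stood for a gene with several.

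Hanwoo are the native beef cattle of Korea, and the study set out to relate muscle expression to beef traits of the same animals. Poly(A) RNA from 10 samples, numbered 1 to 10, was hybridised to 10 Affymetrix bovine arrays. The labels give 1 group, with no treatment, genotype or trait value, and the label of animal 1 gives an age of about 2 years. The muscle fibre genes ACTA1 (15.64 ± 0.11, SD, n = 10), CKM (15.90 ± 0.11) and MYH7 (15.79 ± 0.08) stood near the top of the log2 signal range in all 10 animals. Levels throughout are log2(signal + 16) after quantile normalization, which gives every array the same distribution. Nothing beyond the sample numbers says that the samples were separate animals, so the p-values measure the spread between these samples.

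PPARG and PPARA are nuclear receptors that are switched on by fatty acids and their derivatives and bind DNA in a pair with a retinoid X receptor. PPARG, together with CEBPA, drives the formation of fat cells, while PPARA turns on fatty acid oxidation. PPARGC1A is a coactivator of nuclear receptors and a driver of mitochondrial biogenesis in muscle. MLXIPL, also known as ChREBP, pairs with MLX and turns on glycolytic and lipogenic genes when glucose is plentiful. In beef muscle such genes can be read from muscle fibres and from the fat cells lying between them, and fewer cells of a type and less RNA per cell cannot be told apart in these samples.

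Of the 5 regulators, PPARA and PPARGC1A passed the filter on low signal, which asked for a mean above 6.98, the median probe set mean. PPARG, CEBPA and MLXIPL had means below it. An SD above 0.5 over the animals was found for 4 of the 5, PPARA being the exception, and for 22.1% of the 6271 tested genes. The counts cannot be set side by side as equals, because 3 of the 5 lay below the level at which genes were tested. The median SD of the tested genes was 0.36.

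One array stood apart. Poly(A) control RNAs, spiked into each sample, are read at both ends, and their 3' end exceeded their 5' end by 2.93 log2 units in animal 5, against 1.40 to 1.70 in the other 9. Animals 3 and 7 held far more signal of liver-made plasma protein genes than the others, with a score over 5 of 10 listed genes of 2.73 and 2.59, against 0.74 in the next animal. A score is the mean deviation of a list's tested genes from their means over the animals. Values without these animals are given where they changed a result.

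PPARG was read by 1 probe set. Its level was lowest in animal 5 at 4.83, had a median of 6.90 and was highest in animal 9 at 7.67, with animal 1 close behind at 7.65. The second lowest animal, number 8, stood at 6.35. The deposited intensity was 12.5 in animal 5 and 196 in animal 9. The SD was 0.81 over all animals and 0.50 without animal 5, so a single array carried much of the spread of this fat cell factor. Animals 9, 1, 2, 6 and 4 formed the upper part of the order, between 6.99 and 7.67.

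**Figure D1:**
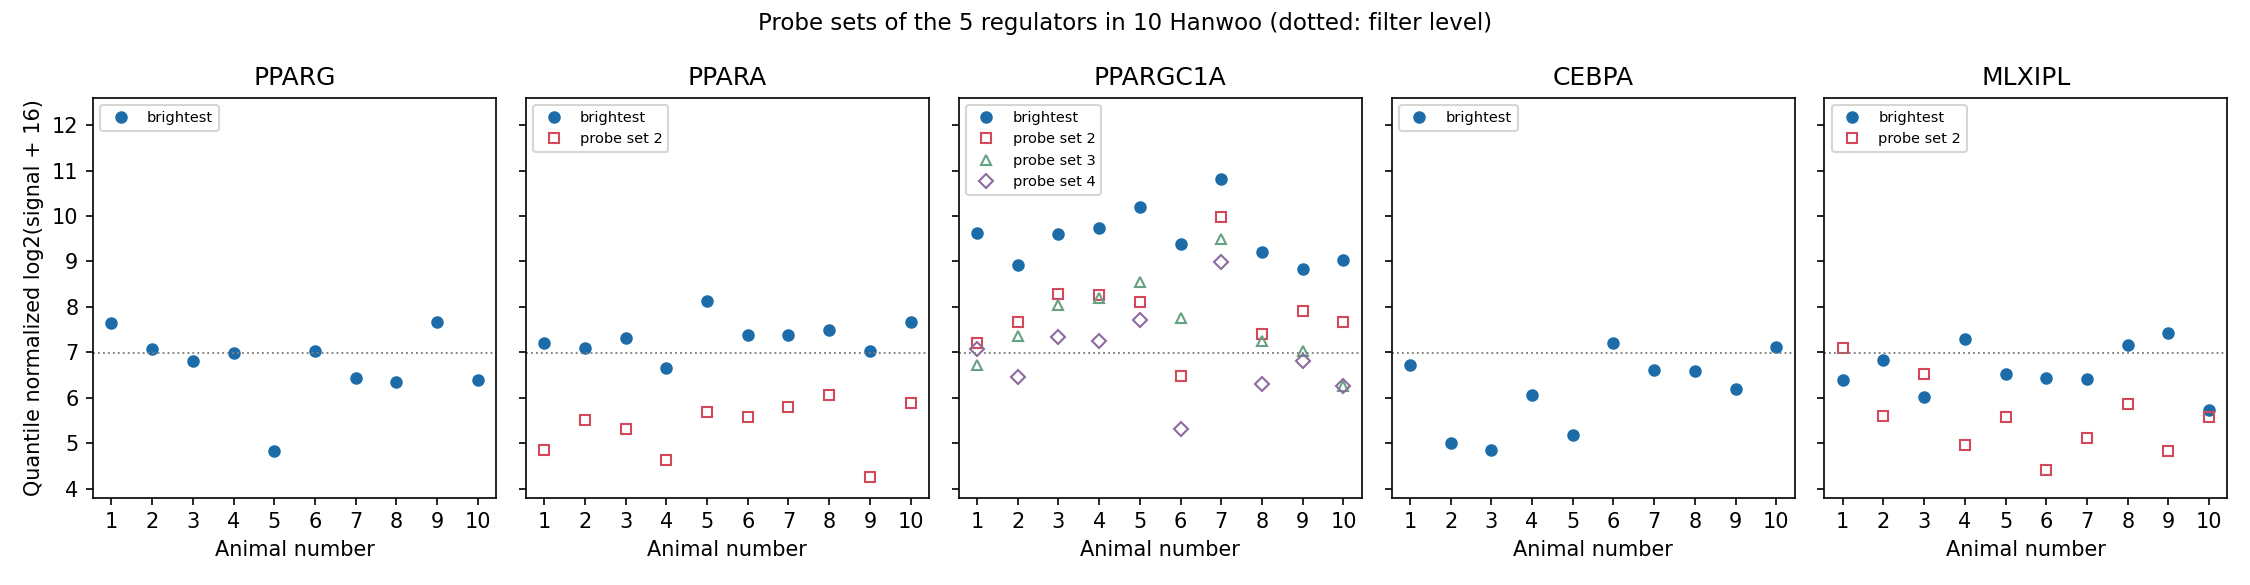
Level of each probe set of the 5 regulators, as quantile normalized log2(signal + 16), in each of the 10 animals. Filled circles mark the brightest probe set of a gene, open symbols its other probe sets, and the dotted line the filter level of 6.98. PPARG is lowest in animal 5 at 4.83, and all 4 PPARGC1A probe sets are highest in animal 7.

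PPARA had 2 probe sets. The brighter one ran from 6.66 in animal 4 over a median of 7.35 to 8.12 in animal 5, with 7.66 in animal 10 as the second highest. Its SD of 0.39 was exceeded by 42.3% of the tested genes. The dimmer one ran from 4.26 in animal 9 to 6.07 in animal 8 and never reached the filter level. Over the 10 animals both probe sets varied together (r = 0.684, rho = 0.842; permutation p = 0.0272 and 0.00342; adjusted p = 0.0363 and 0.0186 over 8 pairs of probe sets). Without animals 4 and 5, the 2 farthest from the median, r was 0.783.

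PPARGC1A was the regulator with the most probe sets, 4 in all, of which 3 had means above the filter level. In order of mean signal they are called the first to the fourth. The first ran from 8.84 in animal 9 over a median of 9.50 to 10.83 in animal 7, a 3.96-fold range on the scale with the pseudocount. Animal 5 followed at 10.20 and animal 4 at 9.73. Its SD was 0.61, and 0.44 without animal 7. The other 3 probe sets were also highest in animal 7. The second reached 9.98 there, against 8.29 in the next animal. The third reached 9.49, against 8.54 in the next. The fourth reached 8.99, against 7.72 in the next. Their lowest levels, 6.47, 6.26 and 5.31, were in animals 6, 10 and 6.

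The 4 PPARGC1A probe sets gave 6 pairs, with r between 0.692 and 0.923 and rho between 0.455 and 0.830. All 6 passed the permutation test on r with adjustment over the 8 pairs (largest adjusted p = 0.0385). On rho, 5 of the 6 passed, and the pair of the first and the second did not (rho = 0.455, permutation p = 0.190, adjusted p = 0.191). Without the 2 animals farthest from the median, r ran from 0.0794 to 0.747, and without animal 7 alone from 0.254 to 0.830. Animal 7 thus raised every pair, and the lowest pair, the first with the second, had little left without animals 5 and 7. The liver-made plasma protein score was high in animals 3 and 7, while PPARGC1A in animal 3 was 9.60, near its median. The source of the plasma protein signal, and its part in the high PPARGC1A values of animal 7, were not tested.

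CEBPA was read by 1 probe set. It ran from 4.85 in animal 3 over a median of 6.38 to 7.21 in animal 6. Animals 3, 2 and 5 were the low ones, between 4.85 and 5.18, and the next, animal 4, stood at 6.05. Animals 6 and 10 were the high ones at 7.21 and 7.12. The SD was 0.87, and 0.85 without animal 5, so the spread of this partner of PPARG did not rest on that array.

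MLXIPL had 2 probe sets, both with means below the filter level. The brighter ran from 5.73 in animal 10 over a median of 6.48 to 7.43 in animal 9, with an SD of 0.55. The dimmer ran from 4.41 in animal 6 to 7.10 in animal 1. No shared pattern passed the test (r = -0.368, rho = -0.455; permutation p = 0.296 and 0.191; adjusted p = 0.296 and 0.191 over 8 pairs; r = -0.0921 without animals 4 and 9). Results for MLXIPL below are those of the brighter probe set.

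To ask which genes followed each regulator across the animals, limma was fitted over all tested genes with the regulator's level, in SD units, as covariate. A slope is the log2 change per SD of the regulator among the animals of that fit. For PPARG that SD is 0.81 with all animals and 0.50 without animal 5, so slopes with and without it differ in unit. A gene rose or fell with it at a Benjamini-Hochberg adjusted p below 0.05 over all genes of that fit.

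With PPARG, whose own mean lay below the filter level, 480 of 6271 genes (7.65%) passed in limma. Of these, 323 rose (5.15%) and 157 fell (2.5%). UTP6, which takes part in ribosomal RNA processing, rose by 0.80 (SE 0.11, adjusted p = 0.0193). PRKACB, a catalytic subunit of protein kinase A, had a slope of -0.88 (SE 0.11, adjusted p = 0.0193). Both genes, and most others that passed, took their most extreme value in the same animal as PPARG. Animal 5 was the one farthest from the median for 459 of the 480 genes (95.6%), against 35.6% of all tested genes. Without animal 5, 0 of 6275 genes passed and 326 (5.2%) had an unadjusted p below 0.05, against 1701 (27.1%) with it. Of the 480 genes, 86 kept their direction with an unadjusted p below 0.05 in that fit. A Spearman correlation per gene called 0 with all animals, with 455 at an unadjusted p below 0.05. Without animal 4 the count was 237. PPARG and the poly(A) control difference had a negative correlation that did not pass adjustment (r = -0.827, rho = -0.442; permutation p = 0.0263 and 0.205; adjusted p = 0.198 and 0.616; r = -0.399 without animals 3 and 5), and with that difference in the fit 0 genes passed.

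**Figure D2:**
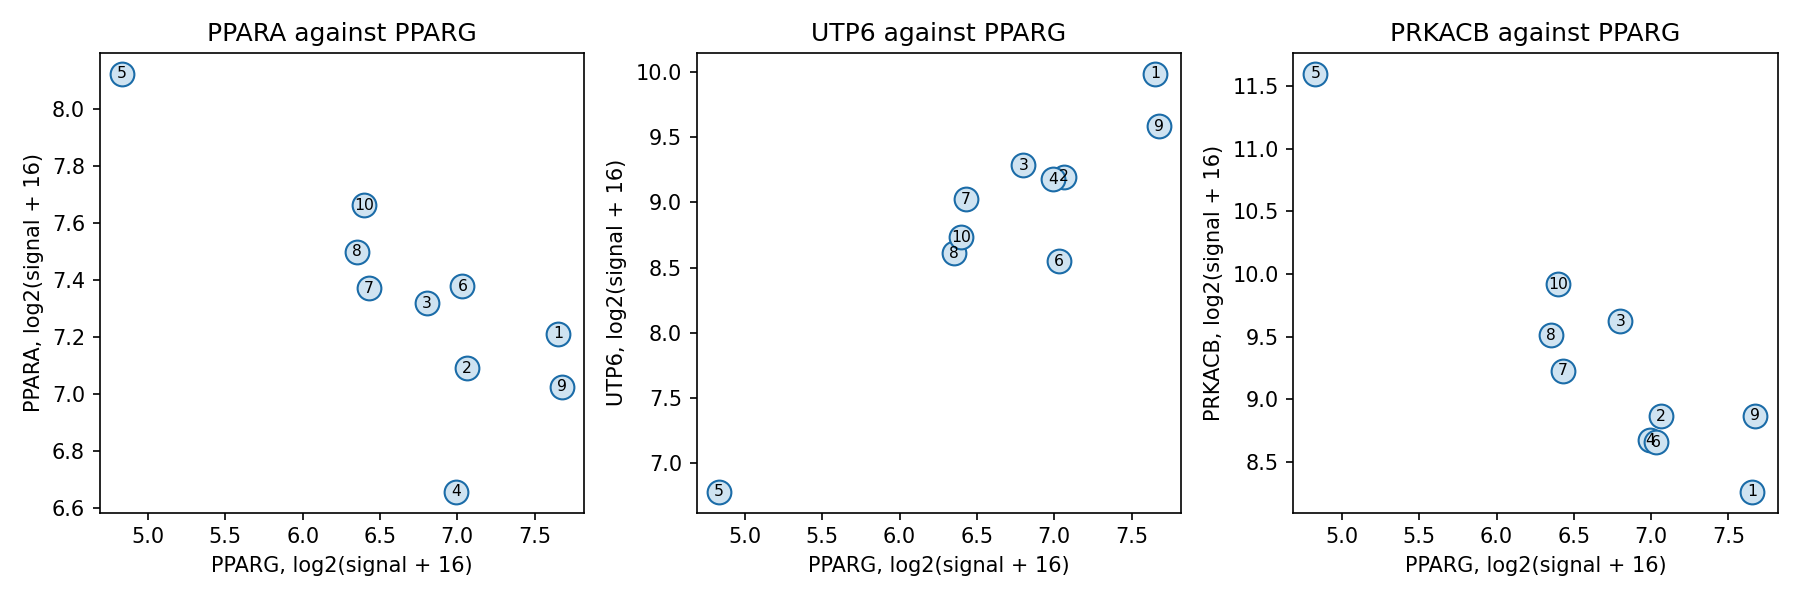
PPARA, UTP6 and PRKACB against PPARG, all as quantile normalized log2(signal + 16), with 1 numbered circle per animal. Animal 5 lies alone at a PPARG level of 4.83, and the other 9 animals lie between 6.35 and 7.67.

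Other genes with large slopes in this fit were GDF7 (1.05), ADGRE5 (0.89), RPS9 (0.83), FRMD3 (0.80), CLN3 (0.79), BCL2L12 (0.78) and HOGA1 (0.77), which rose, and CBLN4 (-0.86), SPATA24 (-0.79), NFIB (-0.65), NOL8 (-0.64), TP53I13 (-0.62), NCEH1 (-0.60) and CLASP2 (-0.59), which fell, with limma adjusted p from 0.0278 to 0.0486. Without animal 5 these slopes ran from -0.79 to 0.88, and that of FRMD3 was -0.08. HOGA1, a mitochondrial enzyme of hydroxyproline breakdown, had 0.88 and CBLN4 -0.79 there (adjusted p = 0.914 for both). Per log2 unit of PPARG, HOGA1 had 1.76 without animal 5, against 0.94 with all animals, and CBLN4 -1.58, against -1.05. UTP6 and PRKACB went the other way. On that scale UTP6 had 0.72 without animal 5, against 0.99 with all animals, and PRKACB -0.84, against -1.08. By Pearson correlation over the 10 animals, the genes most like PPARG were H3-3B (r = 0.966), TMEM147 (0.954), PRKAG1 (0.951), SARS1 (0.949) and ATP6V0D1 (0.944), and the most opposite were MKKS (-0.977), CFAP97 (-0.951) and EIF2S3 (-0.948). Without animal 5 the r of H3-3B, a histone gene, was 0.911 and that of MKKS, a chaperonin-like gene, -0.944, close to the values with all animals. Neither passed the fit without animal 5 (limma adjusted p = 0.914 for both).

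Among 13 tested of 16 listed PPARG target genes, 1 rose, against 5.15% of all genes, and 0 fell. It was CIDEA, a lipid droplet protein, at 0.56 (SE 0.15, limma adjusted p = 0.0461), and its slope was 0.003 without animal 5. The median slope of the list was 0.27, beside 0.02 over all tested genes, and 11 of 13 slopes were above 0. Without animal 5 the median was 0.12, beside 0.01, with 9 of 13 above 0 and 0 past the test. FABP4, the fatty acid binding protein of fat cells, had 0.79 (SE 0.41, adjusted p = 0.237) and 0.35 without animal 5. The adipokine ADIPOQ had 0.66 (SE 0.36, adjusted p = 0.262) and 0.71 without animal 5. The fatty acid transporter CD36, the brightest of the list, had 0.23 (adjusted p = 0.0892), and LPL, which releases fatty acids from blood lipoproteins, had the lowest slope at -0.35 (adjusted p = 0.362), which was 0.22 without animal 5.

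Markers of cell types were read in the same fit. Of 8 tested adipocyte markers of 12 listed, 1 rose, TRARG1, a glucose transporter regulator of fat cells (0.46, limma adjusted p = 0.0389), beside 5.15% of all genes. All 8 slopes were above 0, beside 54.3% of those of all genes, and 6 of 8 without animal 5. LEP and RETN were measured below the filter, and PLIN1 and ADIG were not analysed here. The smooth muscle genes ACTA2 (0.44, adjusted p = 0.0389) and TAGLN (0.62, adjusted p = 0.0293) rose, 2 of 6 tested of 8 endothelial and smooth muscle markers, beside 5.15% of all genes. The median slope of these 6 was 0.002 and the lowest -0.08, with 3 of 6 slopes above 0, and 2 of 6 without animal 5. In the lists of leukocyte (7 of 10 tested), connective tissue (8 of 8), liver (5 of 10) and muscle fibre genes (9 of 11), 0 passed, and all 7 leukocyte slopes were above 0. The muscle fibre genes had means from 15.58 to 15.90, near the top of the signal range, and a score SD of 0.03. Their count of 0 cannot show whether fibre content varied with PPARG. Without animal 5, 0 members of these lists passed. The summed intensity over the animals was 9990 to 29241 for the adipocyte markers, 681 to 2978 for the leukocyte markers and 6085 to 15175 for the endothelial and smooth muscle markers. GPD1 was the brightest adipocyte marker, with a mean of 13.48, against 7.30 for ADIPOQ, the dimmest tested. Such sums weigh bright genes most and do not compare amounts of cell types. The part of these cells in the PPARG slopes was not tested.

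PPARA fell in the PPARG fit by 0.32 per SD (SE 0.09, limma adjusted p = 0.0495 over all 6271 genes), at the edge of the threshold. On the deposited scaling the slope was -0.26 (adjusted p = 0.146), and the call held under 3 of 22 alternatives, with adjusted p from 0.0349 to 0.993. Without animal 5 the slope was -0.17 (adjusted p = 0.914). Per log2 unit of PPARG it was -0.34 there, against -0.39 with all animals. The correlation was -0.810 (permutation p = 0.00785, rho = -0.794, permutation p = 0.00881), and with adjustment over the 30 relations computed it did not pass (adjusted p = 0.118 and 0.238). Without animal 5, which held the lowest PPARG and the highest PPARA, r was -0.570 and rho -0.717. Without animals 5 and 9, the farthest in PPARG, r was -0.519, and leaving out each animal in turn gave r from -0.935 to -0.570. Without animal 4 the relation passed (r = -0.935, adjusted p = 0.0246).

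With PPARA as covariate, 0 of 6270 genes passed in limma, 1159 (18.5%) had an unadjusted p below 0.05, and by Spearman 0 passed and 566 had an unadjusted p below 0.05. Without animal 5 the unadjusted count was 277 (4.42%). The genes most like PPARA were CCDC47 (r = 0.917), ELL2 (0.912), CREBBP (0.906), ZNF582 (0.905) and HS6ST1 (0.903), and the most opposite were PPFIBP1 (-0.935), SNRPB2 (-0.922) and CCT4 (-0.917). CREBBP encodes an acetyltransferase that acts as a coactivator of nuclear receptors, and it fell with PPARG (-0.26, limma adjusted p = 0.0434; adjusted p = 0.0555 on the deposited scaling; -0.15 and adjusted p = 0.914 without animal 5). PPFIBP1 kept r = -0.906 without animal 5.

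None of the 20 tested of 27 listed PPARA targets passed in limma (0% of all genes did), and 8 had an unadjusted p below 0.05, beside 18.5% of all genes. All 8 of these slopes were below 0, and without animal 5 the count was 2 of 20, beside 4.42% of all genes. The list's median slope was -0.14, beside -0.02 over all genes, with 13 of 20 below 0. ACADVL, the very long chain acyl-CoA dehydrogenase of beta-oxidation, had -0.39 (SE 0.09, adjusted p = 0.135). FABP3, the muscle fatty acid binding protein and the brightest of the list, had -0.49 (SE 0.15, adjusted p = 0.162), and the lipid droplet coat gene PLIN2 had the lowest slope at -0.58 (adjusted p = 0.205). VNN1, a pantetheinase, had the highest at 0.37 (adjusted p = 0.375). Without animal 5 these 4 slopes were -0.21, -0.26, -0.05 and 0.02, and the list's median was -0.08. In the same fit the slopes of all 8 adipocyte markers (median -0.21) and all 7 leukocyte markers (median -0.25) were below 0, where 44.9% of those of all genes were above 0, and 6 of 8 and 5 of 7 without animal 5. The part of these cells in the PPARA slopes was not tested. The excess of the 3' end of the poly(A) controls had a positive correlation with PPARA that did not pass adjustment (r = 0.781, rho = 0.721; permutation p = 0.00561 and 0.0238; adjusted p = 0.118 and 0.238; r = 0.828 without animals 3 and 5). Without animal 3 alone this relation passed (r = 0.804, adjusted p = 0.0317). With that excess in the PPARA fit 0 genes passed, as without it (smallest limma adjusted p = 0.593, against 0.129). Its part in these slopes was not tested further.

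With PPARGC1A as covariate, 0 of 6270 genes passed in limma, 368 (5.87%) had an unadjusted p below 0.05, and by Spearman 0 passed and 357 had an unadjusted p below 0.05. Without animal 5 the count was 0 again, with 286 (4.56%) unadjusted. Each of the other 3 probe sets as covariate also gave 0, with 263 to 646 genes at an unadjusted p below 0.05, an alternative chosen after seeing the data. The genes most like PPARGC1A were RIOX1 (r = 0.915), COX5B (0.913), PDCD6 (0.901), FAM210A (0.879) and MGARP (0.867). COX5B is a subunit of cytochrome c oxidase, and its whole range was 14.89 to 15.17. Its slope was 0.08 (limma adjusted p = 0.792), and the others had limma adjusted p from 0.551 to 0.783. MGARP and FAM210A also encode mitochondrial proteins. The most opposite were CRTC1 (-0.950), C25H7orf50 (-0.900) and SLC44A2 (-0.897). CRTC1 encodes a coactivator of the cyclic AMP response factor CREB, and had a slope of -0.49 (SE 0.08, limma adjusted p = 0.299). The other 3 CRTC1 probe sets, all below the filter level, had r of -0.160 to -0.537 with PPARGC1A.

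Of 27 listed PPARGC1A targets, 20 were tested and 0 passed, with 3 at an unadjusted p below 0.05, beside 5.87% of all genes. Those were TFB2M, a mitochondrial transcription factor (0.21), NDUFS1 of complex I (0.21) and the mitochondrial superoxide dismutase SOD2 (0.28), all with limma adjusted p = 0.783. PDK4, which holds back glucose oxidation, had the highest slope at 0.30 (SE 0.15, adjusted p = 0.783), and ATP5PO of ATP synthase the lowest at -0.13. Myoglobin (MB), the brightest, stood between 15.53 and 15.67 with an adjusted p of 1. The list had 16 of 20 slopes above 0 (80%), beside 47.4% of all tested genes, and a median of 0.04, beside -0.01. Of the 5 tested liver genes, 4 had slopes above 0 in this fit, with a median of 0.81, and 0 passed. Their part in the PPARGC1A slopes was not tested.

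The oxidative phosphorylation genes encode subunits of the respiratory chain and ATP synthase. With all animals 20 of 41 slopes on PPARGC1A were above 0, with a median of -0.01. Without animal 5, 38 of 41 were above 0 (92.7%), beside 51.8% of all tested genes, with a median of 0.06, beside 0.01, and 0 passed. The score of these genes was -0.36 in animal 5, against -0.10 to 0.18 elsewhere. Its r with PPARGC1A was 0.00992 (permutation p = 0.977, adjusted p = 0.988, rho = 0.0909) with all animals. Without animal 5 it was 0.693 (exact permutation p = 0.0409, adjusted p = 0.309, rho = 0.467, exact permutation p = 0.213, n = 9), which did not pass. Without animal 7, the highest in PPARGC1A, r was -0.509, and without animals 5 and 7 it was 0.347, so its sign and size rested on both animals.

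**Figure D3:**
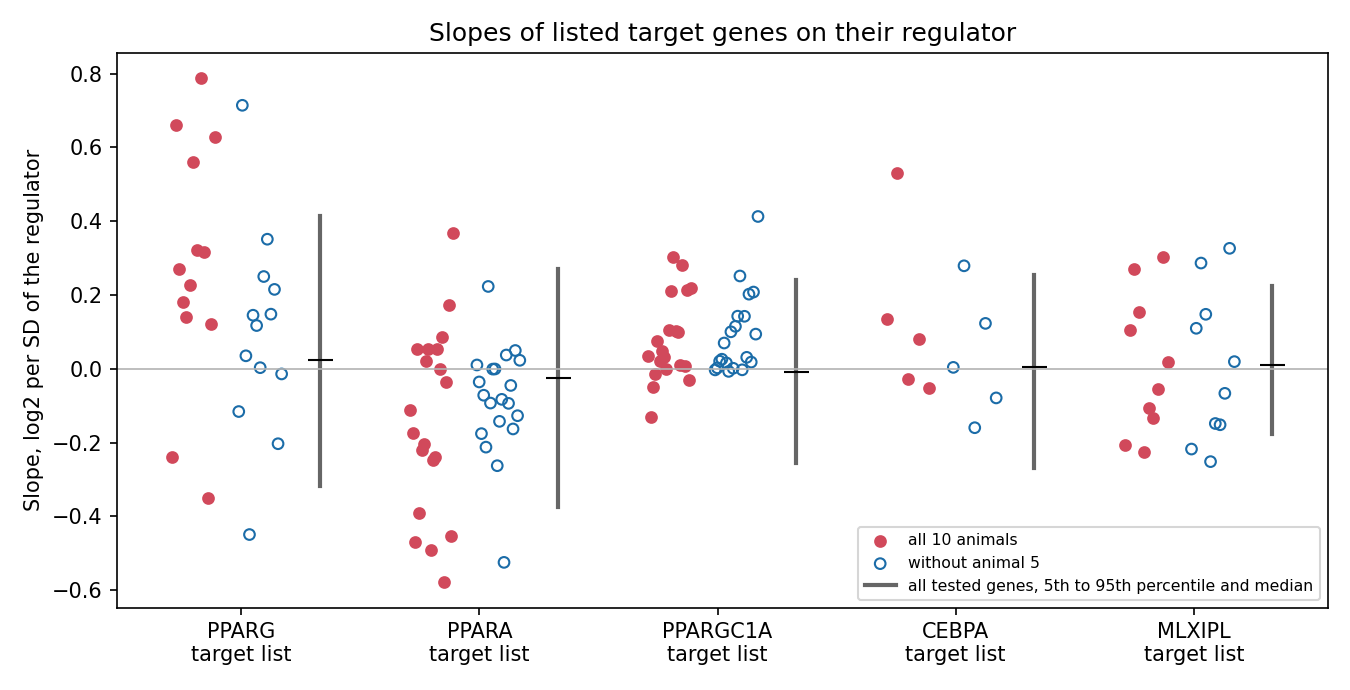
Slopes of the tested genes of each target list on their own regulator, in log2 per SD of the regulator among the animals of that fit, with all 10 animals (filled) and without animal 5 (open). Grey bars span the 5th to 95th percentile of the slopes of all tested genes with all 10 animals, with the median as a dash. The PPARG list has a median of 0.27 with all animals and 0.12 without animal 5, and the PPARA list -0.14 and -0.08.

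CEBPA itself had a mean below the filter level, and its intensities in animals 2, 3 and 5 were near the pseudocount. With CEBPA as covariate, 1 of 6271 genes (0.0159%) passed in limma, 482 (7.69%) had an unadjusted p below 0.05, and by Spearman 0 passed and 498 had an unadjusted p below 0.05. The gene was RBM3, an RNA-binding protein gene known for its induction by mild cold, which fell with CEBPA by 0.92 per SD (SE 0.10, adjusted p = 0.00454). RBM3 ran from 8.49 in animal 6 over a median of 9.34 to 10.98 in animal 2. Animals 2, 3 and 5, the 3 lowest in CEBPA, had RBM3 at 10.98, 10.92 and 10.87, and animals 6 and 10, the 2 highest in CEBPA, had 8.49 and 8.61, the 2 lowest RBM3 levels. The correlation was -0.960 (permutation p = 0.0002, rho = -0.879, permutation p = 0.00164, n = 10), and -0.916 without animals 2 and 3. This pair was picked by the fit over all genes, whose adjusted p is the test that counts.

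CIRBP, the other well-known cold-inducible RNA-binding protein gene, had the third lowest r of all tested genes at -0.918 (rho = -0.891). Its slope of -0.54 (SE 0.09, limma adjusted p = 0.164) did not pass with all animals. CIRBP was at 10.95, 11.12 and 10.28 in animals 2, 3 and 5, against 9.52 and 9.56 in animals 6 and 10. Without animal 5, 2 genes passed (0.0319%), RBM3 (-0.85, adjusted p = 0.0252) and CIRBP (-0.60, adjusted p = 0.0322). Leaving out each animal in turn, RBM3 passed in 9 of 10 fits and missed without animal 2 (adjusted p = 0.0557). CIRBP passed in 1 of the 10, without animal 5. Without animals 3 and 7 the r of RBM3 was -0.949 and its adjusted p 0.112. With the poly(A) controls in the fit both passed, RBM3 at -0.89 (adjusted p = 0.0111) and CIRBP at -0.58 (adjusted p = 0.0202). With the hybridization controls in the fit RBM3 passed (-0.97, adjusted p = 0.0275) and CIRBP did not (-0.50, adjusted p = 0.57). Each of the 2 genes has 1 probe set here.

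**Figure D4:**
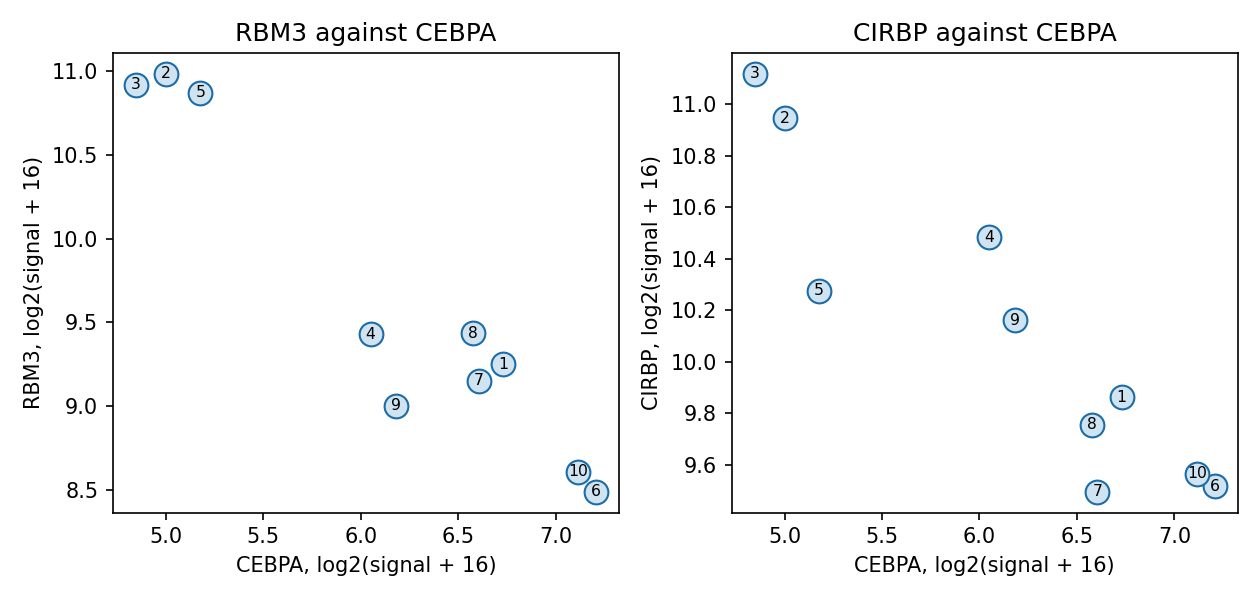
RBM3 and CIRBP against CEBPA, all as quantile normalized log2(signal + 16), with 1 numbered circle per animal. Animals 2, 3 and 5 lie at low CEBPA and high RBM3, and animals 6 and 10 at high CEBPA and low RBM3 (r = -0.960 for RBM3 and -0.918 for CIRBP, n = 10).

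Between RBM3 and CIRBP in the order of r stood TERF1, a telomere-binding protein gene (r = -0.953, limma adjusted p = 0.28). The genes most like CEBPA were RBM4 (r = 0.939), ACSF2 (0.938), ZNF177 (0.923), CDC26 (0.896) and NDUFA3 (0.890), with limma adjusted p from 0.128 to 0.526. RBM4 encodes a splicing regulator, and ACSF2 an enzyme that activates fatty acids. Without animal 5 the poly(A) control difference had a positive correlation with CEBPA that did not pass adjustment on r (r = 0.740, rho = 0.850; exact permutation p = 0.0256 and 0.00607; adjusted p = 0.309 for r; n = 9). With all 10 animals r was -0.229 and rho 0.527 (permutation p = 0.600 and 0.123).

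Of 10 listed CEBPA targets 5 were tested, and 0 passed or had an unadjusted p below 0.05. FABP4 had the highest slope at 0.53 (SE 0.44, limma adjusted p = 0.776), SLC2A4, the insulin-responsive glucose transporter, the lowest at -0.05, and SCD, the stearoyl-CoA desaturase and the brightest, 0.08. Among the adipocyte markers all 8 slopes on CEBPA were above 0, and 8 of 8 were so without animal 5, with medians of 0.27 and 0.17, beside 0.01 and -0.01 over all tested genes, of whose slopes 51.3% were above 0. Of the leukocyte markers 6 of 7 were above 0, with and without animal 5 (medians 0.31 and 0.22), and of the connective tissue markers 7 of 8, or 4 of 8 without animal 5. The part of these cells was not tested. CFD, the adipokine adipsin, had 0.58 (SE 0.15, adjusted p = 0.526) and GPD1, which makes glycerol phosphate, 0.39 (SE 0.11, adjusted p = 0.574). They were the 2 adipocyte markers with an unadjusted limma p below 0.05 (0.00177 and 0.00472), as were 2 of the 7 leukocyte markers, beside 7.69% of all genes. CFD and GPD1 followed the score of the remaining adipocyte markers least, with r of 0.295 and 0.247, against 0.518 to 0.932 for the rest. ADIPOQ had a slope of 0.13 on CEBPA (limma adjusted p = 0.939).

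With MLXIPL as covariate, 0 of 6271 genes passed in limma, 176 (2.81%) had an unadjusted p below 0.05, and by Spearman 0 passed and 205 had an unadjusted p below 0.05. Without animal 5 it was again 0 in limma, with 266 unadjusted. The genes most like it were B4GALT1 (r = 0.925), SUPT4H1 (0.864), CKAP5 (0.856), PON3 (0.850) and IVD (0.834), and the most opposite KCNE4 (-0.858), RARA (-0.845) and ELF1 (-0.831). For RARA, a retinoic acid receptor gene, the second of its 2 probe sets was the brightest without animal 5 and had r = 0.382. Of 21 listed MLXIPL targets 10 were tested and 0 passed. SCD had the highest slope at 0.30 (SE 0.14, unadjusted p = 0.049), and fatty acid synthase, FASN, had 0.27 (SE 0.14). KHK, which phosphorylates fructose, had the lowest at -0.22, and GPD1, the brightest, had 0.15, each with limma adjusted p = 1. With 5 slopes above 0 and 5 below, the list's median was -0.02, beside 0.01. The level of the hybridization controls, RNAs added at a fixed amount, had a negative correlation with MLXIPL that did not pass adjustment (r = -0.708, rho = -0.733; permutation p = 0.0241 and 0.021; adjusted p = 0.198 and 0.238; r = -0.830 without animals 1 and 2). With that level in the MLXIPL fit 0 genes passed, as without it. Its part in these slopes was not tested further.

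Binding partners and other regulators of the same network were fitted in each of the 5 fits. Of 37 listed, 23 were measured and 20 tested. With PPARG 2 passed, beside 7.65% of all genes. NR1H2, an oxysterol receptor, rose (0.29, limma adjusted p = 0.0435) and CREBBP fell, and without animal 5 neither passed (adjusted p = 0.914 for both). CEBPB had the highest slope on PPARG at 0.39 (adjusted p = 0.236) and the corepressor gene NCOR1 the lowest at -0.38 (adjusted p = 0.068). In the fits on PPARA, PPARGC1A, CEBPA and MLXIPL, 0 of 20 passed in limma, with 4, 1, 2 and 1 at an unadjusted p below 0.05, beside 18.5%, 5.87%, 7.69% and 2.81% of all genes. On PPARA the ends were KLF5 (0.33) and CEBPB (-0.34). On PPARGC1A they were SREBF1, a lipogenic factor (0.22), and MLXIP, a relative of MLXIPL (-0.22). On CEBPA they were the retinoid X receptor gene RXRG (0.19) and CEBPD (-0.49), and on MLXIPL the cholesterol regulator SREBF2 (0.53) and CREBBP (-0.12).

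Of 30 relations computed, 10 between regulators, 10 with a gene score and 10 with an array measure, 0 passed the adjustment and 4 had an unadjusted permutation p below 0.05. By rho 0 passed and 3 were below 0.05. Between regulators, PPARG with PPARA was the single pair below 0.05 on r. PPARA and MLXIPL had r = -0.521 (permutation p = 0.121, rho = -0.467), and -0.674 without animal 5 (exact permutation p = 0.0427, adjusted p = 0.309, n = 9). PPARG and PPARGC1A had r = -0.476 (permutation p = 0.168) and -0.309 without animal 5. PPARG and CEBPA, the pair that acts together in fat cell formation, had r = 0.254 (permutation p = 0.505, rho = 0.0545) and -0.129 without animal 5. The other 6 pairs had r between -0.213 and 0.261.

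Against the adipocyte score, PPARG had r = 0.580 (rho = 0.455; permutation p = 0.0758 and 0.191; adjusted p = 0.331 for r), and r was 0.699 without animals 2 and 9 and 0.363 without animal 5. CEBPA had r = 0.448 and MLXIPL 0.417 (permutation p = 0.195 and 0.233), PPARGC1A 0.00526 and PPARA -0.529 (permutation p = 0.988 and 0.113). In the limma fit on this score 3 of 6263 genes outside the list rose (0.0479%), C1QA, C1QB and G0S2, and 0 of the 2 tested regulators did. PPARA had a slope of -0.21 (SE 0.12, adjusted p = 0.611) and PPARGC1A 0.003 (SE 0.18, adjusted p = 0.996). In the fit on the oxidative phosphorylation score 104 of 6230 genes (1.67%) passed, and 0 without animal 5, with 707 (11.3%) at an unadjusted p below 0.05. PPARA had -0.22 (SE 0.11, adjusted p = 0.283) and PPARGC1A 0.01 (SE 0.19, adjusted p = 0.991) in that fit, and 0.03 and 0.42 (adjusted p = 0.937 and 0.346) without animal 5.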

How the data were processed

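Each of 10 arrays gave 1 linear intensity per probe set, deposited by the authors and scaled by them to a common mean (500.177 to 500.203 with 2% trimmed at each end). The software was not given in the sources used here. Per the labels' protocols, poly(A) RNA was biotin labelled and hybridised by the Affymetrix protocol. Median intensity was 111 to 134, and the number of arrays limits the precision.

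After leaving out 112 control probe sets, log2(signal + 16) was quantile normalized, because array medians spanned 0.24, over a limit of 0.2. GEO's platform annotation gave 1 symbol for 13292 probe sets, several for 86 and none for 10638, and the ARS-UCD2.0 gene table changed 0 symbols. The brightest probe set stood for a gene, and 6271 genes with a mean above 6.98 were tested, the regulator itself being left out of its fit. limma 3.58.1 in R 4.3.3 fitted each gene on each regulator and on the adipocyte and oxidative phosphorylation scores, with list members left out of the counts for their own score. Correlations had two-sided permutation tests with 100000 resamples, or all orders enumerated where an exact test is named, and Benjamini-Hochberg adjustment over 30 relations or 8 probe set pairs. The procedure was tested on simulated data with independent noise for each gene. That simulation holds no shift shared by the genes of 1 array, so it cannot show how many false calls an array such as that of animal 5 gives.

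The members and the 13 gene lists were chosen with earlier results of these data known. List entries include older symbols of some genes. Named by rule were, per fit, up to 8 passing genes with the largest slope each way, the 5 highest and 3 lowest r, and in the lists of targets and partners the passing members and both ends, with the brightest target. ADIPOQ, ACADVL, FASN, TFB2M, NDUFS1, SOD2 and the marker genes were named after their values were seen. Alternatives changed scaling, filter, pseudocount, probe set rule, covariates, variance prior, measure, adjustment and animals. No trait values were used here, and no sequences or coordinates are given.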

Additional observations from a re-analysis of the deposited data

Results flagged for a closer look

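In 4 sets of 10 values a single animal stood apart from the rest, its gap to the nearest animal, as a share of the whole range, being over Dixon's limit for 10 samples. Chance alone marks about 1 in 20 such sets. The sets come from the same 10 animals and are not independent, so the 4 cannot be weighed against that rate. PPARG in animal 5 was 4.83, against 6.35 in the next lowest animal. In animal 7 the second PPARGC1A probe set was 9.98, against 8.29 in the next highest. The oxidative phosphorylation score was -0.36 in animal 5, against -0.10 in the next lowest. The poly(A) control difference was 2.93 in animal 5, against 1.70 in the next highest. Animal 5 thus accounts for 3 of the 4. The poly(A) controls are spiked RNAs and not the animal's own. Whether the array or the animal sets the PPARG level and the score in animal 5 was not tested.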

How the results depend on the processing

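No paired analysis was possible because the samples form 1 group. The 480 genes that followed PPARG became 144 with arrays centred on the median, 3 with a pseudocount of 64 and 312 with the hybridization controls as a covariate. That count was 0 with no filter, with the poly(A) controls as a covariate, by Spearman correlation, with 1 adjustment over the 5 regulator fits, and without animals 3, 5 and 7. Leaving out 1 animal gave 0 (animal 5) to 712 (animal 10). Among the named slopes on PPARG that passed the test, those that changed sign were CIDEA -0.0546, FRMD3 -0.0452 and RPS9 -0.0119 with the poly(A) covariate, FRMD3 -0.0381 and RPS9 -0.0154 without animals 3, 5 and 7, and FRMD3 -0.00606 as Spearman's rho and -0.0783 (animal 5) to 0.919 (animal 9) leaving out 1 animal.

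The count of 1 for CEBPA was 2 with median centring, no filter or the poly(A) covariate, and 0 by Spearman, without animals 3 and 7, and without animals 3, 5 and 7, with 0 to 2 leaving out 1 animal. For the adipocyte score, 3 became 5 on the deposited scaling, 1 with no filter, 7 with probe sets averaged and 1 by Spearman, with 1 to 4 leaving out 1 animal. For the oxidative phosphorylation score, 104 became 15 on the deposited scaling, 290 with the 75th percentile as filter and 254 with an intensity trend. That count was 1 with median centring, no filter or the hybridization covariate, 0 with probe sets averaged, the poly(A) covariate or Spearman, 3 without animals 3 and 7, 0 without animals 3, 5 and 7, and 0 to 252 leaving out 1 animal. Of the 30 relations 0 passed, and 1 did without animals 3 and 7, with 0 to 1 leaving out 1 animal. Apart from the settings whose own construction sets the change (fewer animals, more or fewer genes tested), the cause was not tested.

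The counts of 0 for PPARA, PPARGC1A and MLXIPL were 0 in every limma and Spearman setting run. The median SD of the 5 regulators was 0.58 to 0.65 leaving out 1 animal. The settings without animals 3 and 7, and without 3, 5 and 7, were chosen after seeing the data. PPARG, CEBPA and MLXIPL lay below the filter level, where signal limits what 10 arrays can show.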
